A study of Mus musculus with 6 samples.

Results

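The 10 genes described here encode molecules through which myeloid cells can restrain T cells and other immune cells: the arginase genes Arg1 and Arg2, the inducible nitric oxide synthase gene Nos2, the PD-1 ligand genes Cd274 (PD-L1) and Pdcd1lg2 (PD-L2), the interleukin-4 receptor chain gene Il4ra, the cytokine genes Il10 and Tgfb1, the growth factor gene Vegfa and the tryptophan-degrading enzyme gene Ido1. They were chosen by name, and every probe set whose only annotated gene was 1 of them was taken, which gave 15 probe sets for all 10 genes, among 45037 probe sets that are no control and 18193 named genes. The expression arrays, Affymetrix 3' arrays, read RNA of myeloid cells sorted from the femur and tibia marrow of Hdc-GFP mice on the C57BL/6 background, in which green fluorescent protein reports the gene of histidine decarboxylase, the enzyme that makes histamine. By the sample titles, cells of both groups carried the reporter's signal (GFP positive or high) together with the myeloid integrin CD11b. The description of Gr1lo replicate 3 is less clear on this, as given below. The Gr1lo group (3 arrays) was low and the Gr1hi group (3 arrays) high for the antigen Gr1. No treatment, tumour or infection is named for any sample, and the labels give no age. How the reporter was made is not stated either. Nothing says that replicates came from separate animals, and p-values then measure only the spread between these samples, which may be technical.

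Immature myeloid cells that suppress T cells are known above all from tumours and chronic inflammation, and cells with CD11b and Gr1 on their surface are where they are usually sought in the mouse. Arginases split arginine into ornithine and urea, and nitric oxide synthase turns the same amino acid into nitric oxide, so both can deprive T cells of arginine. PD-L1 and PD-L2 bind the inhibitory receptor PD-1 on T cells. Interleukin-10 and TGF-beta dampen immune responses, indoleamine 2,3-dioxygenase starts the kynurenine pathway of tryptophan breakdown, and VEGF-A drives the growth of vessels.

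Each level is a GCRMA value of 1 probe set on the log2 scale, and every difference is Gr1hi minus Gr1lo. A probe set was taken to lie at background in a group where its mean there was no higher than 2.77, the highest value on any array of 3 control probe sets for a transcript that mouse RNA does not hold. The number of arrays limits the precision. In sorted bulk samples fewer cells that express a gene and less RNA per cell cannot be told apart.

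The granulocyte markers Csf3r, Cxcr2, Mmp8, S100a8, S100a9, Ltf, Ngp, Camp and Itgam were above background on every array of both groups, while Ly6g, Ly6c1 and Ly6c2, the genes of the Gr1 antigens, have no probe set of their own here. The replicate 3 arrays of both groups stood apart: their 3 Xist probe sets read between 7.12 and 10.95, against at most 2.43 on the other 4 arrays, although all 6 samples are labelled female and all 6 had the Y-linked Eif2s3y between 9.02 and 10.66. The replicate 3 arrays also had the highest values of the monocyte marker Ccr2 (6.07 and 7.29, against 3.98 to 4.91) and the basophil marker Mcpt8 (7.44 and 7.74, against 3.13 to 5.47). Of the other monocyte, macrophage, basophil and mast cell markers measured, Ly86, C1qa, C1qb, Cd163, Cpa3, Fcer1a and Il4 were also highest on these arrays. The rest, Csf1r, F13a1, Vcam1, Adgre1, Mrc1, C1qc, Ms4a7, Kit, Ms4a2 and Gata2, were not. Of these, F13a1 and C1qc were still highest in replicate 3 within each group. F13a1 read 10.43 there in Gr1lo, against 9.37 and 9.62, and 9.46 in Gr1hi, against 8.58 and 8.43. The description of Gr1lo replicate 3 spells the reporter so that it could mean a lack of GFP, whereas its title places it in the group used here. Results of the called members, of some of the gene lists and of the pathway lists together are therefore also given without both replicate 3 arrays.

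Of the suppressor genes, Arg2, Cd274 and Il4ra were higher and Vegfa and Tgfb1 lower in Gr1hi, and the other 5, Arg1, Nos2, Pdcd1lg2, Il10 and Ido1, lay at background in both groups. Arg2 rose from 5.64 ± 1.69 to 11.87 ± 0.12 (SD, n = 3 per group), a 74.9-fold difference. Il4ra rose from 5.72 ± 0.08 to 7.98 ± 0.28, and Cd274 rose from background to 4.22 ± 0.53. Vegfa fell from 6.17 ± 0.81 to 4.30 ± 0.50. The fall of Tgfb1 was from 4.20 ± 0.25 to 3.48 ± 0.10.

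Of the 15 probe sets, 10 passed the filter on low values (above the 40th percentile of their array on at least 3 of 6 arrays) and were tested. The test was limma across 27811 probe sets with Benjamini-Hochberg adjustment over all of them, two-sided, with a threshold of 0.05. At that threshold 5 member probe sets of 3 genes were higher in Gr1hi and 2 probe sets of 2 genes lower. Of all tested probe sets 54.4% were called, 26.8% higher and 27.6% lower, so that a call in itself sets no gene apart in this comparison. The groups' arrays did not overlap for 7 of the 10 tested member probe sets, against 63.6% of all tested probe sets (32.8% with Gr1hi above and 30.8% with Gr1hi below). The median difference of the 10 was 0.33, against 0.06 for all tested probe sets. Since a probe set could pass the filter through its higher group alone, these counts describe the probe sets that passed and not all members.

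**Figure D1:**
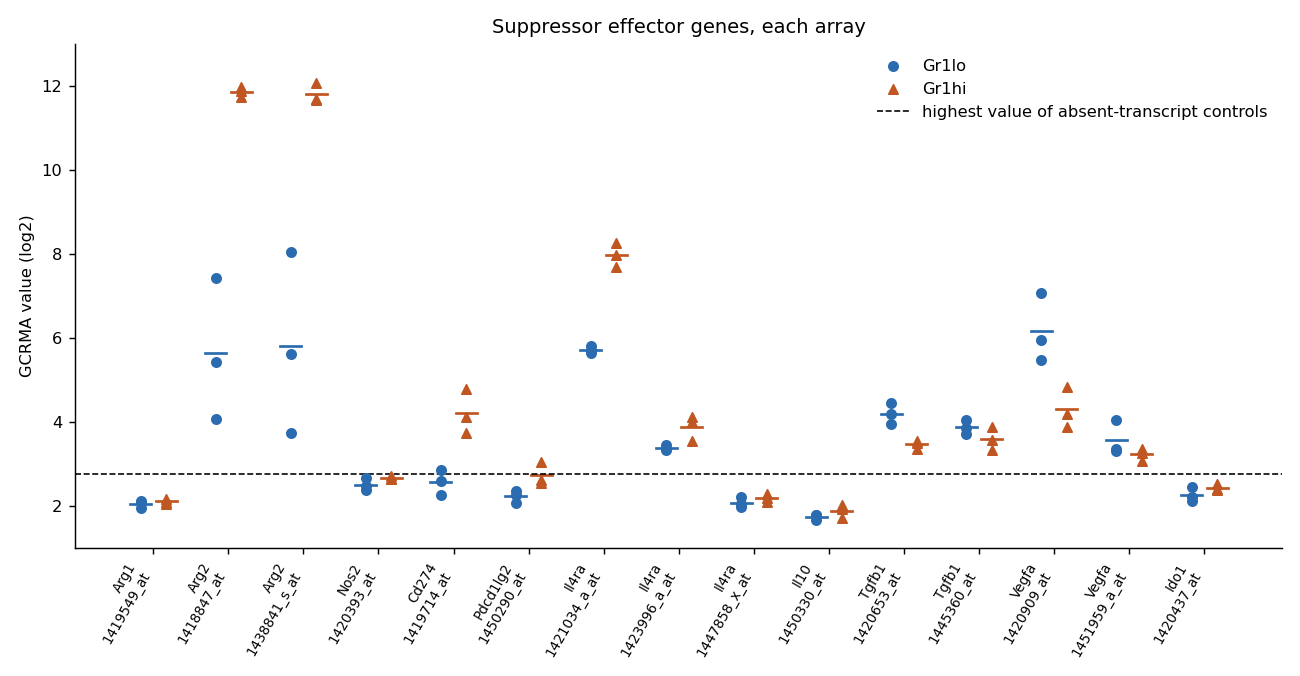
The GCRMA value (log2, vertical axis) of each of the 15 probe sets of the 10 genes on each array; blue circles are the 3 Gr1lo arrays, orange triangles the 3 Gr1hi arrays, short bars the group means, and the dashed line the highest value of the absent-transcript controls (2.77). Arg2 stands at 11.66 or higher on every Gr1hi array by both probe sets, while Arg1, Nos2, Il10 and Ido1 lie under the dashed line on all 6 arrays.

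The promoters of the called genes are shown here as far as the RefSeq table of build GRCm38.p6 holds them, to set the PD-1 ligand genes, whose protein-coding genes neighbour each other, beside the genes that moved with or against Cd274. The table had windows for 5 of the 10 members and none for Arg2. Each line gives the 250 bases before 1 annotated transcript start, 5′ to 3′ on the strand of the gene, and capitals mark motif matches. The windows are Cd274 at chr19:29367188-29367437 (plus strand), Pdcd1lg2 at chr19:29410669-29410918 (plus strand), Il4ra at chr7:125552021-125552270 (plus strand), Tgfb1 at chr7:25686752-25687001 (plus strand) and Vegfa at chr17:46032378-46032627 (minus strand). The Cd274 window lies inside the gene, which begins at 29362107, and so precedes a start further in. The other windows adjoin the outer start of their gene.
Cd274: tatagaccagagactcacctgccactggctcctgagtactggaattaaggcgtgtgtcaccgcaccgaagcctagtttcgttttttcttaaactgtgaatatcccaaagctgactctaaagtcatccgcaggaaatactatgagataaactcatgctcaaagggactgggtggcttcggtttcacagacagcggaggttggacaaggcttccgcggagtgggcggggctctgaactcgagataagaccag
Pdcd1lg2: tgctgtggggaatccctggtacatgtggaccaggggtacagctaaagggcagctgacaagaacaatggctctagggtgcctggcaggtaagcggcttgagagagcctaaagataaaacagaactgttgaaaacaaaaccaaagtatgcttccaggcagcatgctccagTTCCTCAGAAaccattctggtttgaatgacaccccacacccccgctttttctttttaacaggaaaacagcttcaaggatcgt
Il4ra: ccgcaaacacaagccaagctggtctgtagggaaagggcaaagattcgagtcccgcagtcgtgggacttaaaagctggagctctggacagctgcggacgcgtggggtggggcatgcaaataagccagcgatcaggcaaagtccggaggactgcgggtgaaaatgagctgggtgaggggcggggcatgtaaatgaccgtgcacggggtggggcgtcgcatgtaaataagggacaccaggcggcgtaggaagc
Tgfb1: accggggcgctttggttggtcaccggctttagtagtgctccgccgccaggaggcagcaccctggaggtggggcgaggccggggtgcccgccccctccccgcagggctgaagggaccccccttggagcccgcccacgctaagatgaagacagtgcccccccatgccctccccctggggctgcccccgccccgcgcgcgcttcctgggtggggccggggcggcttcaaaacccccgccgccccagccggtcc
Vegfa: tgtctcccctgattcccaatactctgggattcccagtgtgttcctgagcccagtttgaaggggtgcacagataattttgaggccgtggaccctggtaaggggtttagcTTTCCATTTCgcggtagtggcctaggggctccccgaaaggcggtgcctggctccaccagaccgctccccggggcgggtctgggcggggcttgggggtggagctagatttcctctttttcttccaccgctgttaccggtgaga
The base composition of these windows ran from 48.4% G and C in Pdcd1lg2 and 50.4% in Cd274 to 59.2% in Vegfa, 59.6% in Il4ra and 75.2% in Tgfb1, with a median of 52.4% over all 32851 windows. Cd274 held 11 CpG dinucleotides and Pdcd1lg2 held 3, against a median of 6.

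The windows were searched on both strands for 6 motifs: GAAA and GAAA with any 2 bases between (the core of the interferon-stimulated response element), TTC and GAA with any 3 bases between (a STAT site) or any 4 (a STAT6 site), GGGA and TTTCC with any 1 base between (an NF-kB site), ACGTG (the core of the hypoxia response element) and GTCTAGAC (a SMAD element). In Pdcd1lg2 the only match was TTCCTCAGAA, a STAT6 motif that begins 82 bases before the start; 5.85% of all windows hold that motif. In the printed Vegfa window the only match was TTTCCATTTC, the interferon element core on the other strand, which begins 142 bases before the start and has a match in 2.98% of all windows. A second Vegfa window, at a start further into the gene and not printed here, held as its only match CACGT, the hypoxia element core on the other strand, which begins 211 bases before that start. The Cd274, Il4ra and Tgfb1 windows held no match to any of the 6, of which the 3-base STAT, hypoxia, NF-kB and SMAD motifs occur in 7.02%, 16.6%, 0.356% and 0.167% of all windows. A match is only a run of letters, and its absence says only that these letters are not in this window.

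Among the arginases the groups differed in Arg2 and not measurably in Arg1. Arg2, which encodes the mitochondrial arginase, read 7.43, 4.07 and 5.42 on the Gr1lo arrays (replicates 1, 2 and 3 in turn, here and below) and 11.87, 11.98 and 11.74 on the Gr1hi arrays by probe set 1418847_at. Every Gr1hi array stood above every Gr1lo array, and the Gr1lo arrays spread far more than the Gr1hi arrays. The difference was 6.23 (SE 0.65, limma adjusted p = 3.01e-05), and 14 of the 27811 tested probe sets rose by more. The other probe set, 1438841_s_at, read 8.05, 3.75 and 5.63 in Gr1lo and 12.06, 11.69 and 11.66 in Gr1hi, and differed by 6.00 (SE 0.83, limma adjusted p = 0.000188). The _s_at ending marks a probe set that may match more than 1 transcript; here both probe sets put the 3 Gr1lo arrays in the same order.

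The order of the Gr1lo arrays for Arg2 was also that of 3 other genes, chosen after their values were seen: the neutrophil chemokine receptor gene Cxcr2, the G-CSF receptor gene Csf3r and the cytokine gene Il1b. Gr1lo replicate 1, the highest for Arg2, was also the highest of its group for Cxcr2 (8.24, against 7.36 in replicate 2 and 8.07 in replicate 3), Csf3r (10.01, against 9.27 and 9.45) and Il1b (6.66, against 4.03 and 5.03). Replicate 2 was the lowest of the 3 for all of them. Most granulocyte markers ordered the Gr1lo arrays otherwise: of 9 measured markers 3 (Csf3r, Cxcr2 and Mmp8) were highest in replicate 1 and the other 6 in replicate 3, while 8 were lowest in replicate 2. Of those 6, all but Itgam read 13.99 or higher on every array. The highest value of the series was 15.01, so the order of these markers may not be measurable. Between the groups, 4 of the 9 rose in Gr1hi and 0 fell: Csf3r rose by 2.68, Cxcr2 by 2.99, Mmp8 by 2.46 and Itgam by 0.89. The summed linear value of the 9 ran from 122945 to 143117 in Gr1lo and from 157409 to 163896 in Gr1hi. The markers near the top of the scale dominate that sum. The part of granulocyte markers in the difference of Arg2 was not tested. Leaving out single arrays moved this difference of Arg2 (1418847_at) between 5.44 and 7.12, and without both replicate 3 arrays it was 6.18 (limma adjusted p = 0.00116).

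Arg1, which encodes the cytosolic arginase of the urea cycle and of alternatively activated macrophages, read between 1.97 and 2.12 in Gr1lo and between 2.06 and 2.18 in Gr1hi. All 6 values lay below the lowest value of the absent-transcript controls, 2.21. It did not pass the filter; with no filter the difference was 0.06 (95% interval -0.13 to 0.24, limma adjusted p = 0.647). Nos2 read 2.38, 2.68 and 2.48 in Gr1lo and 2.65, 2.64 and 2.71 in Gr1hi, all under 2.77, and the groups overlapped. Its difference was 0.15 (95% interval -0.06 to 0.37, limma adjusted p = 0.209). It passed the test only after median centring of the tested probe sets on each array (0.35, limma adjusted p = 0.00925), and turned to -0.10 after centring on the hybridization controls (0.00925 to 0.617 over all alternatives).

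Genes that supply or use arginine beside these enzymes moved in both directions. Of 14 tested genes of the list 6 fell and 4 rose (of all tested probe sets 27.6% and 26.8%), with a median difference of 0.09. This list and those below were chosen with earlier results of these data known. The falls were in Gatm, whose product makes the creatine precursor from arginine (10.96 ± 0.39 to 5.98 ± 0.45), Aldh18a1, an enzyme of proline and ornithine synthesis, Slc7a1, a carrier of arginine into cells (8.05 ± 0.60 to 4.17 ± 0.33), and Odc1, which makes putrescine from ornithine (8.42 ± 0.66 to 5.76 ± 0.13). Aldh18a1 lay at background in Gr1hi (6.15 ± 1.23 to 2.11 ± 0.20), which makes the fall at least 10.4-fold by that probe set; of its other tested probe sets 2 fell by 1.04 and 0.55, and the third differed by -0.19 (adjusted p = 0.379). The spermidine synthase gene Srm and the ornithine aminotransferase gene Oat fell as well, by 3.16 and 0.72. The largest rise was in Gch1, whose product makes the cofactor of nitric oxide synthases, from 3.48 ± 0.09 to 7.55 ± 1.01. Azin1, a protein that frees ornithine decarboxylase from its inhibitor, rose by 0.42, and Asl and Slc7a7 rose by 0.62 and 0.48. The limma adjusted p was 7.95e-05 or lower for Gatm, Aldh18a1, Slc7a1, Odc1 and Gch1. Gch1 was the only riser called after centring on the hybridization controls, and without both replicate 3 arrays 2 genes rose; under each of these 6 genes of the list fell. The synthase genes Nos3 and the carrier Slc7a2 lay at background in both groups, and Nos1 differed by 0.08 (adjusted p = 0.708).

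**Figure D2:**
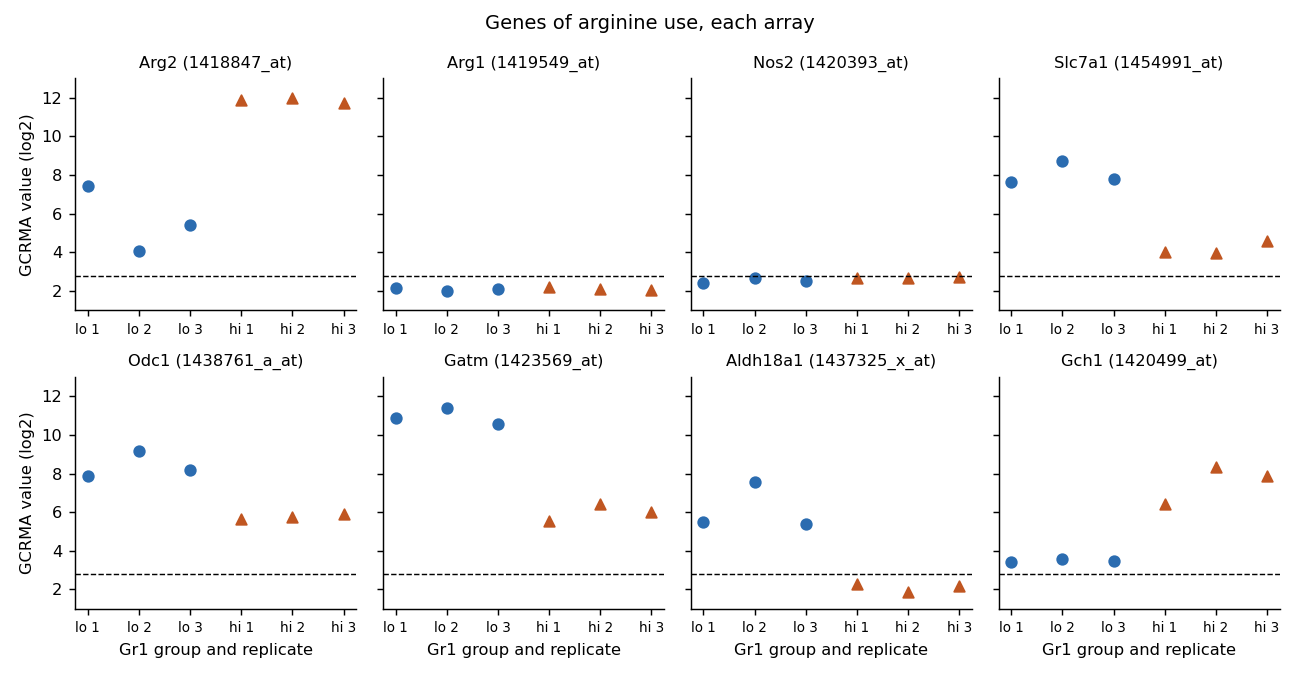
GCRMA value (log2, vertical axis) on each array (horizontal axis: Gr1 group and replicate) for Arg2, Arg1, Nos2 and 5 other genes of arginine use; blue circles are Gr1lo, orange triangles Gr1hi, and the dashed line is the highest value of the absent-transcript controls (2.77). Arg2 and Gch1 are higher on all 3 Gr1hi arrays, Slc7a1, Odc1, Gatm and Aldh18a1 lower on all 3, and Arg1 and Nos2 stay under the line on all 6.

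Of the PD-1 ligands, Cd274 was detected in Gr1hi. It read 2.60, 2.27 and 2.85 in Gr1lo and 3.75, 4.12 and 4.79 in Gr1hi. The groups did not overlap, Gr1lo lay at background by its mean of 2.57, and the highest Gr1hi value was that of replicate 3. The fitted difference was 1.65 (SE 0.25, limma adjusted p = 0.000382). Because Gr1lo was at background, the difference from the background level gives a bound of at least 2.73-fold. Without both replicate 3 arrays it was 1.5 (limma adjusted p = 0.00062), and it lay between 1.36 and 1.88 over all alternatives.

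Pdcd1lg2 read 2.07, 2.27 and 2.35 in Gr1lo and 2.62, 2.56 and 3.06 in Gr1hi. The groups did not overlap, but both means (2.23 and 2.74) lay at background, and Gr1hi replicate 3 was the only array above 2.77. The probe set did not pass the filter. With no filter the difference was 0.51 (95% interval 0.20 to 0.83, limma adjusted p = 0.0148), where 34.9% of all probe sets were called, 17.8% higher and 17.1% lower. Both ligand genes were highest in Gr1hi replicate 3, the array with the highest Ccr2 and Mcpt8. Over the whole monocyte and macrophage list of 12 measured markers 2 rose and 2 fell, and C1qc, Cd163 and Ms4a7 were at background in both groups. Csf1r rose by 4.01 and Adgre1 by 2.99, while Vcam1 differed by -5.25 and F13a1 by -0.98. The summed linear value ran from 2194 to 3070 in Gr1lo and from 3921 to 4877 in Gr1hi. Csf1r, at 11.78 in Gr1hi, dominates the Gr1hi sum. In the basophil and mast cell list of 7 measured markers 0 rose and 2 fell, and Fcer1a was at background by its mean in both groups. Kit and Ms4a2 were the fallers, at -1.94 and -1.64. The sum ran from 481 to 555 in Gr1lo and from 116 to 413 in Gr1hi. Kit, at 8.41 in Gr1lo, is the largest part of the Gr1lo sum. The part of either cell type in the ligands' values was not tested.

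Of 14 tested genes of co-stimulation and inhibition beside the ligands 9 rose and 0 fell (of all tested probe sets 26.8% and 27.6%). Their median difference was 0.78. Cd80 and Cd86, the ligands of CD28 and CTLA-4, rose from 3.47 ± 0.16 to 6.22 ± 0.43 and from background (2.34 ± 0.13) to 4.77 ± 0.38. Cd244a, which encodes the SLAM family receptor 2B4, rose from 2.96 ± 0.38 to 7.72 ± 0.71. Sirpa, the receptor of CD47, rose from 10.64 ± 0.16 to 11.73 ± 0.10, while Cd47 itself read 12.31 ± 0.13 and 12.18 ± 0.08 (adjusted p = 0.196). The limma adjusted p was 1.87e-05 or lower for Cd80, Cd86, Cd244a and Sirpa. Pdcd1, which encodes PD-1, lay at background in both groups (2.41 ± 0.08 and 2.52 ± 0.19). Centring on the hybridization controls left 7 risers and gave 2 that fell. Some markers of antigen-presenting and lymphoid cells were also called higher, while others were at background or not called. Of 5 tested dendritic cell markers 3 rose and 0 fell (1 and 0 after that centring): Cd74 from 3.55 to 4.98, H2-Eb1 by 0.58 and H2-Ab1 by 0.58. The sum over the 8 measured dendritic markers ran from 58.7 to 65.3 in Gr1lo and from 89.6 to 112 in Gr1hi, with Flt3, Xcr1 and Zbtb46 at background in both. Of 6 tested B cell markers 3 rose and 1 fell (1 and 1 after that centring), with sums from 74.0 to 83.6 and from 69.6 to 91.9. Of 5 tested T and NK cell markers 2 rose and 0 fell (1 and 0 after that centring); Cd3d rose from 4.32 to 8.49 while Cd3e, Cd3g, Gzma and Ncr1 were at background in both groups, and the sum over the 9 measured ran from 64.7 to 85.6 and from 403 to 465. Their part in the values of Cd274, Cd80 and Cd86 was not tested.

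Il4ra, which encodes the chain that interleukin-4 and interleukin-13 receptors share, rose by 1 probe set clearly and by another weakly. Probe set 1421034_a_at read 5.64, 5.80 and 5.71 in Gr1lo and 7.98, 8.25 and 7.70 in Gr1hi, without overlap. The rise was 2.26, or 4.80-fold (SE 0.19, limma adjusted p = 6.56e-06), and 2.40 without both replicate 3 arrays (limma adjusted p = 0.000157). Probe set 1423996_a_at read 3.46, 3.35 and 3.35 in Gr1lo and 3.55, 4.13 and 4.0 in Gr1hi, which also do not overlap. Its difference of 0.51 (SE 0.17, limma adjusted p = 0.0293) lost the call without Gr1lo replicate 1, 2 or 3, or Gr1hi replicate 2 or 3, where it ranged from 0.39 to 0.55, without both replicate 3 arrays (0.44, adjusted p = 0.157) and after centring on the hybridization controls (0.25, adjusted p = 0.364; 0.00592 to 0.364 over all alternatives). The third, 1447858_x_at, lay between 1.98 and 2.29 on all arrays, at background.

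Of 11 tested genes of the Il4ra pathway 4 rose, 0 fell and 7 were not called, with a median difference of 0.29. Of all tested probe sets 26.8% were called higher and 27.6% lower, so that this share of risers is no trait of the pathway. Il13ra1, the chain that pairs with Il4ra to bind interleukin-13, rose from 3.90 ± 0.06 to 8.67 ± 0.13 (difference 4.77, SE 0.17, limma adjusted p = 1.35e-07). The kinase gene Jak1 rose by 1.26, Stat6, the transcription factor of this pathway, from 9.66 ± 0.18 to 10.85 ± 0.06, and Retnla, a gene that responds to interleukin-4 in macrophages, from 5.27 ± 0.58 to 6.48 ± 0.06. Chil3, another such gene in macrophages that granulocyte precursors also express, read 14.43 ± 0.08 and 14.30 ± 0.06 near the top of the scale (adjusted p = 0.0577), and Mrc1 read 3.06 ± 0.11 and 2.83 ± 0.17 (adjusted p = 0.136). Il4 read 3.10 ± 0.07 and 3.11 ± 0.10. No probe set names Il2rg, the partner in the interleukin-4 receptor of blood cells, alone. The counts were 4 and 2 after centring on the hybridization controls.

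Il10 itself was at background, with values of 1.78, 1.66 and 1.78 in Gr1lo and 2.02, 1.72 and 1.93 in Gr1hi. The groups overlapped, and with no filter the difference was 0.15 (95% interval -0.05 to 0.35, limma adjusted p = 0.247). Of 11 tested genes of the receptor and the factors downstream of it 9 rose and 0 fell (of all tested probe sets 26.8% and 27.6%). Their median difference was 1.59. The same counts of this list were found after centring on the hybridization controls and without both replicate 3 arrays. The receptor kinase gene Tyk2 (0.20, adjusted p = 0.294) and the repressor gene Etv3 (0.50, adjusted p = 0.0551) did not pass the test by the probe set used. Other probe sets of Etv3 rose by 1.23 and 0.83 (limma adjusted p = 0.000226 and 0.0068), and another differed by 0.30 (adjusted p = 0.0504). Il10ra, the ligand-binding chain, rose from background (2.59 ± 0.17) to 4.90 ± 0.48. One of its other tested probe sets rose by 0.60 and the other differed by 0.08 (adjusted p = 0.566). Il10rb, which is shared with other receptors, rose from 10.23 ± 0.06 to 11.27 ± 0.14. Stat3, the transcription factor of the receptor, rose by 1.05, Socs3 from 4.32 ± 1.09 to 10.14 ± 0.10, the NF-kB cofactor gene Bcl3 from 4.27 ± 0.45 to 8.40 ± 0.39, and Zfp36, whose product destabilizes cytokine mRNA, by 2.70. For Socs3, Bcl3 and Zfp36 the limma adjusted p was 3.74e-06 or lower. The same factors also serve receptors of other cytokines, so the list does not stand for interleukin-10 alone.

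Tgfb1 was lower in Gr1hi by 1 of 2 probe sets. Probe set 1420653_at read 3.96, 4.46 and 4.19 in Gr1lo and 3.50, 3.37 and 3.56 in Gr1hi, with no overlap and with all 6 arrays above 2.77. The difference was -0.73 (SE 0.17, limma adjusted p = 0.00413), and -0.78 without both replicate 3 arrays (limma adjusted p = 0.0242). Probe set 1445360_at read 3.71, 3.85 and 4.06 in Gr1lo and 3.35, 3.89 and 3.58 in Gr1hi. Those groups overlapped, and the difference of -0.27 (95% interval -0.67 to 0.13, limma adjusted p = 0.228) did not pass the test.

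Of 16 tested genes of the TGF-beta list 11 rose and 0 fell (of all tested probe sets 26.8% and 27.6%). Their median difference was 0.78. The co-receptor gene Tgfbr3 differed by -0.38 (adjusted p = 0.145) and Smad2 by 0.25 (adjusted p = 0.0746), and neither passed the test by the probe set used. Another probe set of Smad2 was called lower (-0.36, limma adjusted p = 0.0426). Tgfbr2, the receptor chain that binds the ligand, rose from 7.78 ± 0.58 to 10.78 ± 0.13 (limma adjusted p = 7.46e-06), while its other tested probe set differed by 0.17 (adjusted p = 0.331). Tgfbr1, the signalling chain, rose by 0.62 (limma adjusted p = 0.000963), a call lost after centring on the hybridization controls (0.36, adjusted p = 0.0724; 0.000201 to 0.0724 over all alternatives). Smad3 rose from 7.39 ± 0.34 to 9.37 ± 0.09 and Skil, a repressor of SMAD factors, by 1.21. Other tested probe sets of Smad3 rose by 0.31 and differed by 0.37 (adjusted p = 0.0543). Thbs1, whose product can activate latent TGF-beta, rose from 5.16 ± 0.65 to 10.63 ± 0.66 (limma adjusted p = 2.23e-06). The other isoforms were low: Tgfb2 read 2.84 ± 0.03 and 2.91 ± 0.12, and Tgfb3 lay at background. After centring on the hybridization controls 7 of the list rose and 1 fell.

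Vegfa fell by 1 of 2 probe sets. Probe set 1420909_at read 5.95, 7.07 and 5.49 in Gr1lo and 3.87, 4.19 and 4.85 in Gr1hi, so that the groups did not overlap and Gr1hi replicate 3 was nearest to Gr1lo. The difference was -1.87, or 3.65-fold (SE 0.39, limma adjusted p = 0.00271), and -2.48 without both replicate 3 arrays (limma adjusted p = 0.00141). Probe set 1451959_a_at read 3.31, 4.04 and 3.35 in Gr1lo and 3.27, 3.35 and 3.07 in Gr1hi. These overlapped, and the difference of -0.34 (95% interval -0.78 to 0.11, limma adjusted p = 0.181) passed the test only after centring on the hybridization controls (-0.60, adjusted p = 0.0274; 0.0274 to 0.589 over all alternatives). Both probe sets were highest in Gr1lo replicate 2, the array that was lowest for Arg2.

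Among the other angiogenic factors and their receptors more genes rose than fell. Of 12 tested genes of the list 6 rose and 2 fell (of all tested probe sets 26.8% and 27.6%), with a median difference of 0.34. Prok2, which encodes the myeloid angiogenic factor Bv8, rose from background (2.09 ± 0.44) to 6.80 ± 1.07, and Mmp9, the gelatinase that can release VEGF from matrix, from 11.92 ± 0.43 to 13.92 ± 0.07 (limma adjusted p = 2.00e-05 and 9.30e-06). Nrp1, a co-receptor of VEGF, rose by 1.48, and Hif1a, a subunit of the hypoxia-inducible factor that activates Vegfa, by 0.78. Egln1, whose product marks that factor for destruction when oxygen is present, fell from 7.97 ± 0.13 to 6.90 ± 0.15. Nrp2 was called lower (-0.37) with both means at background. Vegfb differed by 0.10 (adjusted p = 0.619), and the receptor genes Flt1, Kdr and Flt4 lay at background in both groups. Centring on the hybridization controls gave 4 risers and 2 fallers, and leaving out both replicate 3 arrays 4 and 1.

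Ido1 read 2.22, 2.12 and 2.45 in Gr1lo and 2.40, 2.41 and 2.52 in Gr1hi. All 6 values were at background and the groups overlapped; with no filter the difference was 0.18 (95% interval -0.06 to 0.42, limma adjusted p = 0.229). Of 12 measured genes of the kynurenine pathway 4, Ido2, Tdo2, Kynu and Il4i1, were at background in both groups, and the other 8 were above it in at least 1 group. Of 8 tested genes 1 rose and 1 fell (of all tested probe sets 26.8% and 27.6%), with a median difference of 0.05. Haao, an enzyme late in the pathway, rose from 3.30 ± 0.16 to 5.12 ± 0.12 (limma adjusted p = 1.09e-05). Wars, the tryptophanyl-tRNA synthetase gene, fell by 0.55 (limma adjusted p = 0.0106), a call lost after median centring (-0.35, adjusted p = 0.0560; 0.00212 to 0.0560 over all alternatives). Ahr, the receptor of kynurenine, differed by 0.27 (adjusted p = 0.423).

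**Figure D3:**
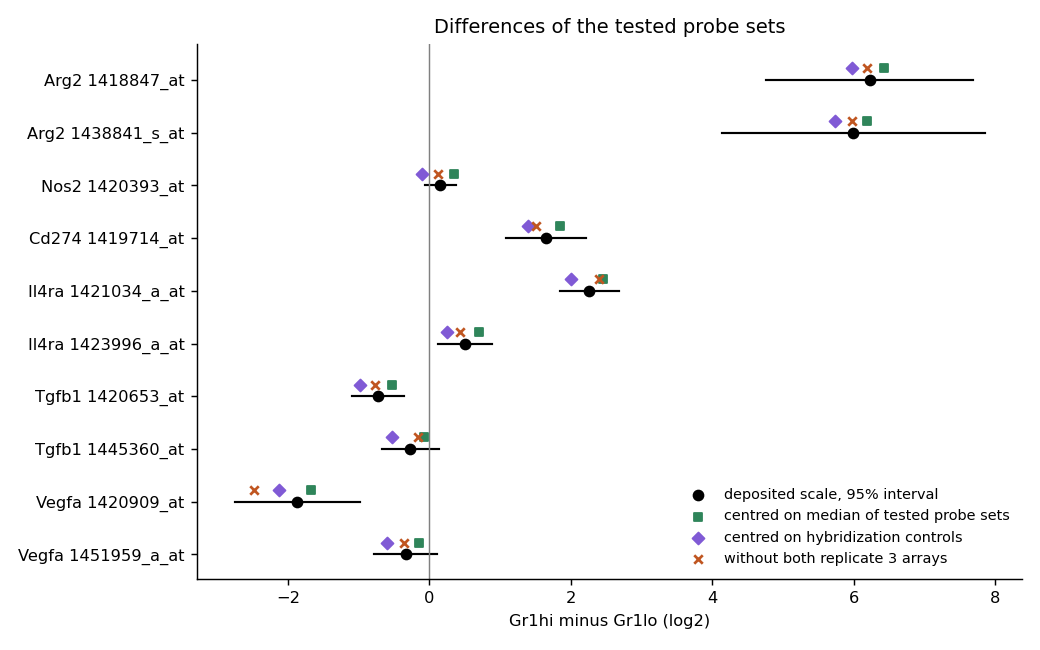
Difference Gr1hi minus Gr1lo (log2, horizontal axis) of the 10 tested member probe sets (vertical axis); black points and lines are the fitted differences and 95% intervals on the deposited scale, and the coloured marks above them are the differences after median centring on the tested probe sets (green squares), centred on the hybridization controls (purple diamonds) and without both replicate 3 arrays (orange crosses). Arg2, Cd274 and the first Il4ra probe set lie right of 0 by all 4, and the first Tgfb1 and Vegfa probe sets left of 0 by all 4, while Nos2 crosses 0.

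The scaling of the arrays sets how many small differences are called in each direction. Centring arrays on the median of the tested probe sets adds 0.20 to every difference, and centring on the hybridization controls takes 0.26 away. The share of calls that were higher in Gr1hi was 49.3% on the scale as deposited, 65.1% with the first centring and 32.2% with the second. Under both, and without both replicate 3 arrays, Arg2 (both probe sets), Cd274, Il4ra (1421034_a_at), Tgfb1 (1420653_at) and Vegfa (1420909_at) kept their direction and their call.

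Further mediators that are ascribed to suppressive myeloid cells were counted as a group of their own. Of 20 tested genes 10 rose and 2 fell (of all tested probe sets 26.8% and 27.6%), with a median difference of 0.31. Entpd1 and Nt5e, which encode CD39 and CD73, the enzymes that turn extracellular ATP into adenosine, rose from 4.97 ± 0.39 to 8.91 ± 0.21 and from 6.15 ± 1.24 to 10.77 ± 0.21. Other tested probe sets of Nt5e rose by 1.14 and differed by 0.10 (adjusted p = 0.681). Il1b rose from 5.24 ± 1.33 to 12.62 ± 0.27, Ptgs2, the cyclooxygenase of prostaglandin E2 synthesis, from background (2.21 ± 0.23) to 6.07 ± 0.73, and Hmox1, the heme oxygenase, from 3.14 ± 0.31 to 6.01 ± 0.09. Olr1, which encodes the oxidized lipoprotein receptor LOX-1, fell from 9.80 ± 0.21 to 7.34 ± 0.10, and Lgals1, which encodes galectin-1, from 9.36 ± 0.62 to 7.77 ± 0.60. The limma adjusted p was 3.40e-05 or lower for Entpd1, Nt5e, Il1b, Ptgs2, Hmox1 and Olr1, and 0.00329 for Lgals1. Among the oxidase genes Ncf1 rose by 0.39 (limma adjusted p = 0.000706), while Cybb, Cyba and Ncf4 differed by 0.13 or less and did not pass the test. The alarmin genes S100a8 and S100a9 read 14.87 and 14.89 in Gr1lo and 14.94 and 14.99 in Gr1hi, at the top of the scale (highest value 15.01), where a difference may not be measurable. Slc27a2, a fatty acid transporter, differed by 0.24 (adjusted p = 0.104). Il6 lay at background in both groups. The hybridization-control centring gave 8 and 3, and leaving out both replicate 3 arrays 9 and 3.

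Over all 8 lists around the members, 104 genes were tested, of which 53 (51.0%) rose and 11 (10.6%) fell, against 26.8% and 27.6% of all tested probe sets. The list genes have 1 probe set each, whereas the latter shares count every tested probe set. With 1 probe set per gene in the whole fit 3126 were higher and 4051 lower. The lists were chosen with earlier results of these data known, and some genes stand on 2 lists, so that the shares of the list genes describe these genes only. Centred on the hybridization controls 40 rose and 18 fell, and without both replicate 3 arrays 47 rose and 11 fell.

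**Figure D4:**
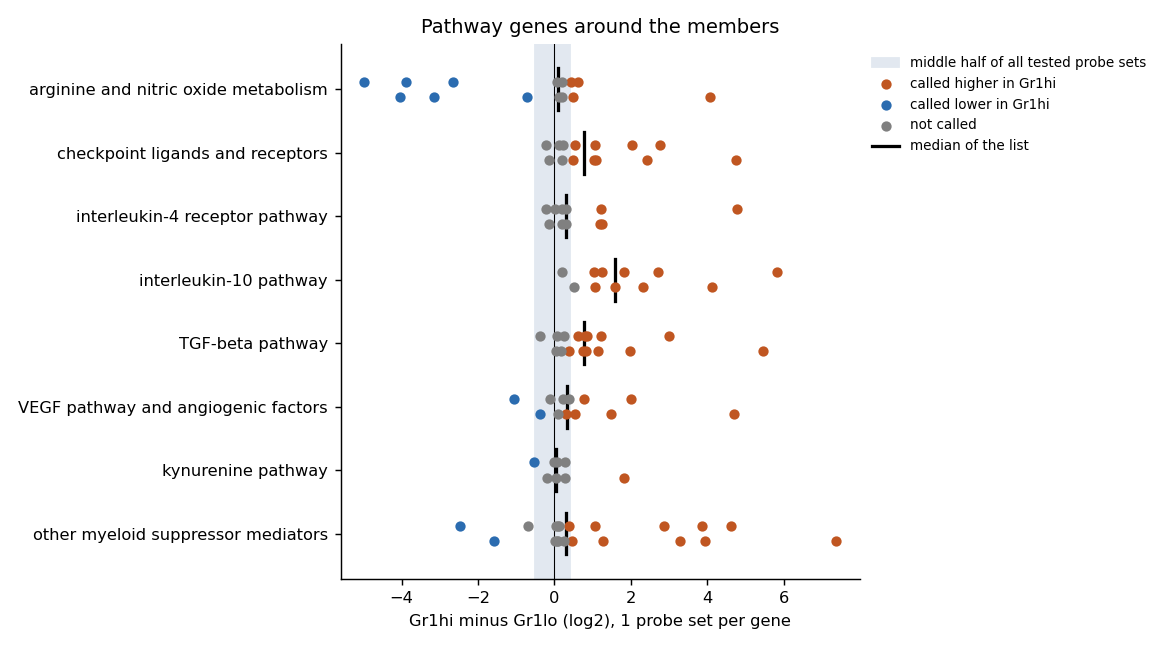
Difference Gr1hi minus Gr1lo (log2, horizontal axis, 1 probe set per gene) of the tested genes of the 8 lists around the members (vertical axis); orange points were called higher, blue points lower and grey points not called, black bars are list medians, and the shaded band runs from the 25th to the 75th percentile of all tested probe sets (-0.50 to 0.41). The interleukin-10 pathway has the highest median (1.59), and the arginine list holds 6 of the 11 genes called lower.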

How the data were processed

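RNA (100 ng per sample) of 6 sorted samples was labelled with biotin and put on 3' expression arrays, as the labels' protocols say. The deposited values are log2 levels per probe set, computed by the authors with GCRMA per the submitters' processing notes, which name no version or settings. Between 0.87 and 15.01, with array medians of 2.86 to 2.94 and no missing value, they fit a log2 scale. No detection calls were used.

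Of 45101 probe sets, 64 were controls, 34945 had 1 gene symbol in the platform annotation, 932 several and 9160 none. Probe sets above the 40th percentile of their array on at least 3 of 6 arrays were fitted in R 4.3.3 with limma 3.58.1, using lmFit and a trended eBayes, and p-values were adjusted over all of them. Pathway genes were read from 1 probe set each, the one with the highest mean. Of the 56 such genes with another tested probe set, 0 had calls in opposite directions. Smad2 and Pvr were not called by the probe set used (0.25 and -0.21). Each had another probe set called with the opposite sign (-0.36 and 0.41, limma adjusted p = 0.0426 and 0.0304). Intervals are 95% intervals of the fit. The fit was tested on simulated data.

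The members and all lists were chosen with earlier results of these data known. In each pathway list the text names up to 4 called genes per direction with the smallest p and the partners of the members, and further genes chosen after their values were seen. Of 221 listed symbols 205 had a probe set of their own. Alternatives were other filters, 1 probe set per gene or the mean of its probe sets, eBayes settings, 3 scalings, array weights, a threshold of 0.01, a replicate block, and arrays left out. A pseudocount did not apply. Figures were drawn with Python 3.11.15 and matplotlib 3.10.9.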

Additional observations from a re-analysis of the deposited data

How the results depend on the processing

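Of 174 refits of the 10 tested member probe sets, 163 kept their direction and their side of the threshold, 8 lost the call, all of Il4ra 1423996_a_at, and 2 gained one (Nos2 and Vegfa 1451959_a_at, given above). In 1 the direction turned: Nos2, not called either way, was at -0.10 after centring on the hybridization controls. Leaving out single arrays gave 4 to 5 member probe sets higher and 2 lower, 49 to 53 pathway genes higher and 11 to 13 lower, and 6463 to 7042 higher and 7119 to 7402 lower over all probe sets. With 1 probe set per gene, which tests fewer features, 3 member probe sets were higher, and 3126 higher and 4051 lower in all, against 7447 and 7672 with all probe sets. Centring on the median of the tested probe sets gave 11919 higher in all, and centring on the hybridization controls 4484 higher in all and 18 pathway genes lower. Of 755 refits of 42 named pathway genes 16 lost a call and 4 turned direction, all of genes not called either way: Vegfb at -0.16 after centring on the hybridization controls, -0.0063 without Gr1lo replicate 3 and -0.0030 without Gr1hi replicate 2 (from -0.0063 to 0.22 over single arrays left out), and Ahr at -0.057 without both replicate 3 arrays. The 95th percentile of 78 probe sets of olfactory and vomeronasal receptor genes (2.85), used as the background level instead, also put 6 member probe sets at background in both groups.

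The replicate numbers of the titles are shared by both groups. Deviations from the group means correlated by 0.17, 0.03 and 0.15 for same-numbered arrays 1, 2 and 3, and every array correlated best with its own number, which is a hint from the data and not from the design. The high Xist values on both replicate 3 arrays and on no other array are a further hint of that kind, for number 3. With the replicate number as a block 5 member probe sets were higher and 2 lower, 51 and 12 pathway genes, and 7287 and 7617 probe sets in all. With 3 arrays per group, probe sets near background have only a bound on their difference.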

Other observations

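The genes whose 6 values were nearest to those of each called member, after each gene was centred on its own mean, were sought among 11740 tested genes with 1 probe set each, and the distance is the root mean square difference on the log2 scale. Nearest to Arg2 (1438841_s_at) were Pla2g7, whose product breaks down platelet-activating factor (distance 0.35, difference 6.50), Tspan13, a tetraspanin gene (0.43, 5.70), and Cd300ld, a paired receptor gene (0.46, 6.07). Nearest to Cd274 were Hdac4, a histone deacetylase gene (0.10, difference 1.69), Hrh2, which encodes the histamine H2 receptor (0.17, 1.81), and the kinase gene Ptk2b (0.17, 1.48). Nearest to Il4ra (1421034_a_at) were Klhdc4 (0.09, difference 2.19), the stress-responsive transcription factor gene Atf3 (0.10, 2.23, with Gr1lo at background) and Trim25, a ubiquitin ligase gene of antiviral sensing (0.13, 2.27).

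Among the genes lower in Gr1hi, Wdr43, a ribosome assembly factor gene (distance 0.16, difference -1.96), the deubiquitinase gene Usp10 (0.17, -2.03) and Trmt2a, a tRNA methyltransferase gene (0.17, -1.87), were nearest to Vegfa (1420909_at). Zfp322a (0.05, -0.63), Atp5k, a subunit of ATP synthase (0.06, -0.72), and Cmtm4 (0.06, -0.66) were nearest to Tgfb1 (1420653_at). With 3 arrays in each of 2 groups, such nearness mostly reflects a difference of the same size between the groups.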
